A study of Mus musculus with 12 samples.

Results

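The 35 genes described here encode the folding machinery of the endoplasmic reticulum (ER), the sensors and transcription factors of its unfolded protein response, and genes induced when amino acids run short. They were chosen by gene symbol from known function and by no rule on their values, though with earlier results of these data known. All 35 were found among the 16385 genes of the expression table. Of these, 15 are chaperones and folding enzymes, 4 act in ER-associated degradation, 7 are sensors and factors, and 9 are amino acid stress genes. All 35 reached at least 1 FPKM (fragments per kilobase of gene, scaled to the fragments of the library) in at least 2 libraries, the filter that left 12578 genes for testing.

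RNA-seq was done on AtT-20 cells, a mouse pituitary tumour line used as a model of corticotropes, which make the hormone precursor Pomc. The cells carried retroviral transgenes of the transcription factor Pax7 or its paralog Pax3. Splicing can add a glutamine (Q), or a glycine and a leucine (GL), to the paired domain through which Pax7 binds DNA, and the question was how these isoforms and the Pax7 C-terminus change the genes that Pax7 controls. The 6 groups of 2 libraries each comprised cells with Pax3, with Pax7-465 (a mutant lacking the end of the C-terminus, which the study's supplement describes as made in Pax7 with Q and without GL), with Pax7 NoTag, and with the Pax7 isoforms lacking both insertions (Q-GL-), carrying GL only (Q-GL+) or carrying both (Q+GL+). According to the study's methods, Pax7 constructs carried Flag tags at both ends, were driven by a CMV promoter, and were expressed in pools of many Geneticin-resistant colonies. Cells made in this way were not single clones, and the methods do not describe the Pax3 cells separately. The NoTag group lacks the tag by its label, which names Pax7 without an isoform, and the methods do not describe it separately. Cells without a transgene were not analysed here, nor was any group labelled as full-length Pax7 with Q and without GL. The study takes that isoform as its reference, and whether the NoTag cells carry it is not stated. The methods call the 2 libraries of a group biological replicates and do not say whether each came from its own pool of colonies, so the p-values reflect how far these libraries differ and no more.

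The ER folds secreted proteins with the help of chaperones such as BiP (Hspa5), of lectins that bind sugar chains, and of protein disulfide isomerases. When unfolded proteins accumulate, the sensors Ire1 (Ern1), Atf6 and Perk (Eif2ak3) respond. Ire1 splices Xbp1 mRNA, Atf6 is cut to release a transcription factor, and both products induce chaperones and the degradation machinery. Perk phosphorylates the initiation factor eIF2, which slows translation while favouring that of Atf4. Other eIF2 kinases respond to amino acid shortage, so Atf4 and its targets for amino acid uptake and synthesis can be induced with or without ER stress. Hormone-secreting cells such as corticotropes carry a heavy folding load. RNA levels show neither Xbp1 splicing, nor Atf6 cleavage, nor eIF2 phosphorylation.

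Sums of FPKM over all genes ranged from 413794 to 483161 in the 10 libraries of the other groups and from 627305 to 666609 in the NoTag libraries, where 733 genes had values above 0 that were 0 elsewhere. The number of reads per library is unknown, since the table holds no counts. The libraries of each group, lower one first, had Pax7 at 0.159 and 0.161 FPKM in Pax3, 93.9 and 95.2 in Q-GL-, 102 and 104 in Q-GL+, 99.9 and 102 in Q+GL+, 109 and 113 in Pax7-465 and 157 and 159 in NoTag cells. Of 7 corticotrope markers in the table, 6 were above 1 FPKM in every group. So were the 3 melanotrope markers in the table, Pcsk2, Oacyl and Megf11, which mark the pituitary cell type that Pax7 specifies. Only 1 of 3 endothelial, 2 of 3 macrophage, 2 of 8 other pituitary and 2 of 5 fibroblast markers had values. Gh and Prl, for instance, could not be read. The endothelial, macrophage and other pituitary markers with values were below 1 FPKM in every library. Of the fibroblast markers Col1a1 passed 1 FPKM in Pax3 cells alone, at up to 1.07 FPKM. Fewer cells of a type and less RNA per cell cannot be told apart in such libraries.

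Many of the chaperones and amino acid stress genes were among the most abundant mRNAs of these cells. Over the 10 libraries other than NoTag, Hspa5 averaged 605 FPKM, above 99.6% of the genes tested. Hsp90b1, the ER form of the large chaperone Hsp90, averaged 471 FPKM, P4hb, the classical protein disulfide isomerase, 411 FPKM, and Asns, which makes asparagine, 402 FPKM. The lowest of the 35 was Slc7a11, the cystine importer, at 6.53 FPKM, above 34.5% of the genes tested. The 3 sensors were lower than most of the chaperones, with Ern1 at 14.4 FPKM, Atf6 at 21.6 FPKM and Eif2ak3 at 10.8 FPKM. Between the highest and the lowest of the 5 group means, Edem1 differed 1.51-fold, Ppp1r15a 1.41-fold, Trib3 1.32-fold and Slc7a11 1.32-fold. Eif2ak3 differed 1.04-fold, Dnajb11 1.06-fold and Ern1 1.06-fold. The map of all 35 genes shows these differences library by library.

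**Figure D1:**
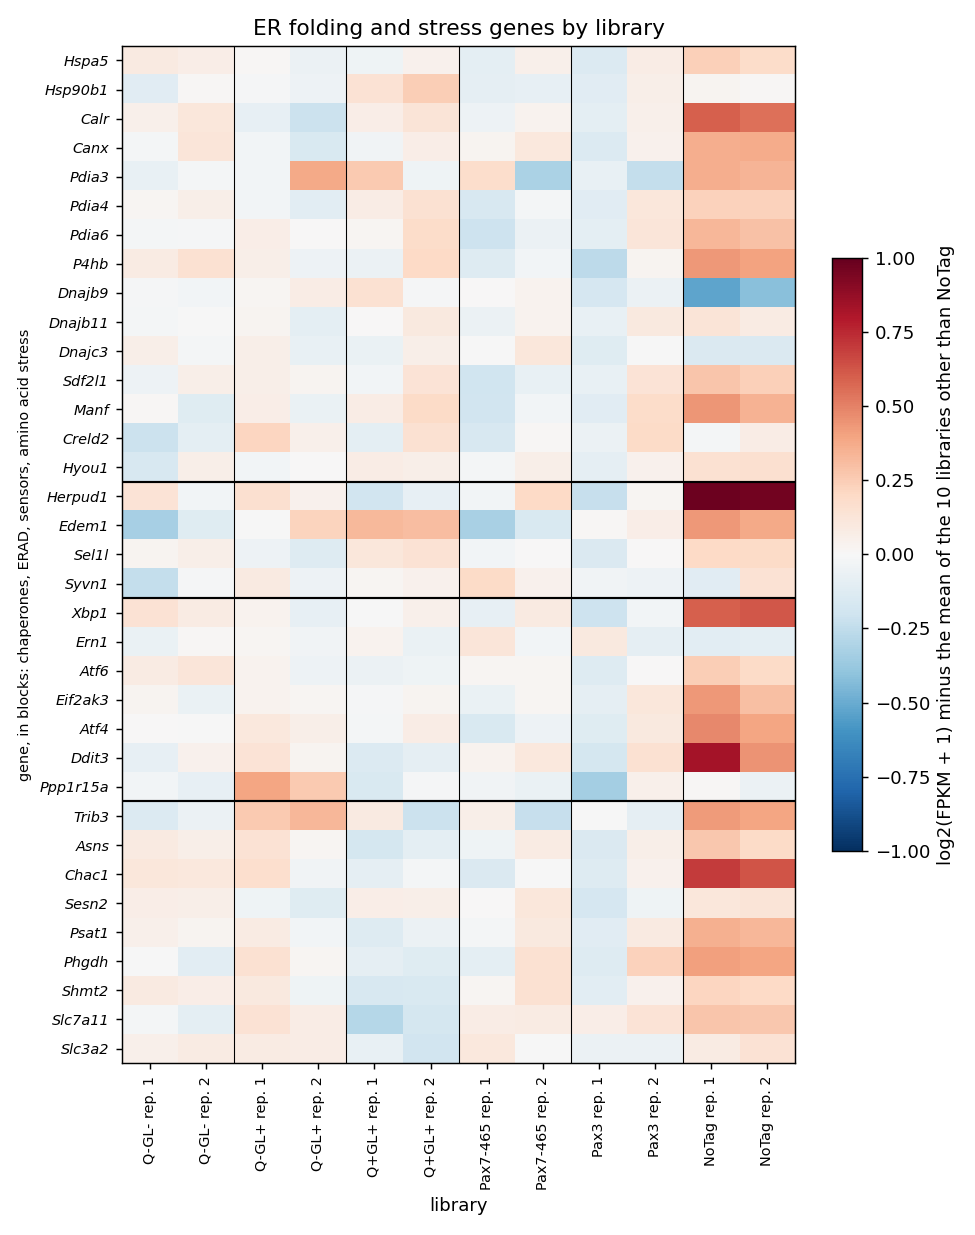
Each cell gives the log2(FPKM + 1) of a gene in a library minus its mean over the 10 libraries other than NoTag, with rows in blocks by role and columns by group. The NoTag columns are the darkest, with Herpud1 at 0.98 and 0.96, while within the other 5 groups most cells are pale.

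Promoters of the chaperones and of the amino acid stress genes carried different sequence elements. RefSeq promoter windows (GRCm38.p6, 250 bases before to 50 after each RefSeq start) were found for 32 of the 35 genes, in 33 windows. No window was found for Atf6, Hyou1 and Manf. The ER stress response element is a CCAAT box and the bases CCACG with 9 bases of any kind between them, and Atf6 and Xbp1 can bind it together with the CCAAT-binding factor NF-Y. It was searched on both strands and lay in the windows of 7 of 13 chaperones (53.8%), namely Hspa5, Hsp90b1, Calr, Canx, Pdia6, Creld2 and Dnajc3, and in that of Syvn1, against 0.137% of 27025 genes. It lay in none of 9 amino acid stress genes. The element TGATGNAA, bound by Atf4 with C/EBP proteins, lay in 4 of 9 amino acid stress genes (44.4%), namely Asns, Chac1, Slc7a11 and Trib3, in Herpud1, in no chaperone, and in 4.51% of all genes. Another element, TGACGTGG, which Xbp1 binds and whose end overlaps the reverse complement of the CCACG of the first, lay in no member and in 0.714% of all genes. A match describes these letters only and says nothing about binding in these cells.

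Windows of 5 genes with the ER stress response element are shown because they include the most abundant chaperones that hold it and the ligase gene Syvn1. P4hb, at 411 FPKM, had no match in its window. Each reads 5′ to 3′ on the gene's strand, with the fixed bases of the element in capitals. The Hsp90b1 window holds it once on each strand, and that of Calr holds it on the opposite strand, where it reads CGTGG before ATTGG.
Hspa5: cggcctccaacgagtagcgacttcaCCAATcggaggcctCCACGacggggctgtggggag
Hsp90b1: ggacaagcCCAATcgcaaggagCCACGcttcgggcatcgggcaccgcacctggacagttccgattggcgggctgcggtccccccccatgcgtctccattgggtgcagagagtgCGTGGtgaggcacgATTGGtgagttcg
Calr: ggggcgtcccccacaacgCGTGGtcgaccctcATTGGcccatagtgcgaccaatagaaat
Pdia6: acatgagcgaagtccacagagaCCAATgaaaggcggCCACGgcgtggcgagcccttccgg
Syvn1: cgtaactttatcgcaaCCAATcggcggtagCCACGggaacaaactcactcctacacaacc
They lie at chr2:34772000-34772059, chr10:86705525-86705664, chr8:84847052-84847111, chr12:17266469-17266528 and chr19:6046516-6046575 in that order (GRCm38.p6), and they begin 90, 220, 180, 120 and 60 bases before the RefSeq start.

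Windows of 4 genes with the Atf4 and C/EBP element are shown for comparison, again with its fixed bases in capitals. Slc7a11 holds it on both strands, and Chac1 and Herpud1 hold it on the opposite strand, where it reads TT, any base and CATCA.
Slc7a11: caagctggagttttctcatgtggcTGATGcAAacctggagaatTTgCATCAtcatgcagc
Chac1: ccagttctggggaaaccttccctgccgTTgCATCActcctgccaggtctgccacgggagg
Asns: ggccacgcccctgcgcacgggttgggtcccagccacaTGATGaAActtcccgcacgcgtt
Herpud1: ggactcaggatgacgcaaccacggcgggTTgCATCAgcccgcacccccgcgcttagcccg
They lie at chr3:50443644-50443703, chr2:119351022-119351081, chr6:7693210-7693269 and chr8:94386289-94386348 in that order (GRCm38.p6), and they begin 90, 220, 60 and 140 bases before the RefSeq start.

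Across the 5 groups other than NoTag, 1 of the 35 genes differed, against 4.78% of all genes tested (limma moderated F test, Benjamini-Hochberg adjusted p under 0.05). That gene was Edem1, which delivers misfolded glycoproteins to ER-associated degradation. At an unadjusted p under 0.05, 5 of the 35 passed, against 19.5% of all genes: Edem1, Slc7a11, Ppp1r15a, Trib3 and Hsp90b1. Both shares of the 35 were below those of all genes, but they rest on 1 and 5 genes, and no p was computed over the list. The order at the adjusted threshold depended on the scaling. With quantile normalization of all 12 libraries, 10 of the 35 passed, as did 1149 of all genes. Without the NoTag libraries in it these counts were 5 and 823. In both, the share of the 35 was the larger. With median centring the counts were 2 and 772, and the share of the 35 stayed the smaller.

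Edem1 (ENSMUSG00000030104, mm10 chr6:108828640-108859356) was at 9.40 and 11.04 FPKM in Q-GL-, 12.02 and 14.3 in Q-GL+, 15.4 and 15.2 in Q+GL+, 9.48 and 10.8 in Pax7-465, 12.2 and 12.7 in Pax3 and 16.7 and 16.05 in NoTag cells. Both Q+GL+ libraries were above the 8 libraries of the other 4 groups in the test, and the Q-GL- and Pax7-465 libraries were the lowest. The F test gave an adjusted p of 0.022, and leaving out either Q+GL+ library or Q-GL- replicate 1 raised it to between 0.061 and 0.079. The other genes of ER-associated degradation did not pass. Herpud1, a membrane protein of the degradation complex, was at 38.6 and 34.4 FPKM in Q-GL-, 39.3 and 36.2 in Q-GL+, 30.5 and 33.1 in Q+GL+, 34.5 and 40.5 in Pax7-465, 29.7 and 35.7 in Pax3 and 70.3 and 69.3 in NoTag cells (adjusted p = 0.38). None of the 5 groups lay wholly above or below the rest, and both NoTag libraries lay far above all of them. Sel1l, the adaptor of the ubiquitin ligase Syvn1, was at 45.8 and 46.8 FPKM in Q-GL-, 43.3 and 41.1 in Q-GL+, 48.6 and 49.8 in Q+GL+, 44.1 and 45.1 in Pax7-465, 40.6 and 45.04 in Pax3 and 51.9 and 51.6 in NoTag cells (adjusted p = 0.28). Both Q+GL+ libraries were above the 8 others of the test. Syvn1 itself ranged from 10.95 to 15.1 FPKM over the 10 libraries (adjusted p = 0.56).

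None of the 15 chaperones and folding enzymes passed the F test, and 1 passed at an unadjusted p under 0.05. Hspa5, the master chaperone of the ER, was at 642 and 634 FPKM in Q-GL-, 609 and 579 in Q-GL+, 587 and 624 in Q+GL+, 564 and 626 in Pax7-465, 549 and 635 in Pax3 and 713 and 687 in NoTag cells. None of the 5 groups lay wholly above or below the rest, and the F test gave an adjusted p of 0.88. Hsp90b1 was at 433 and 473 FPKM in Q-GL-, 467 and 453 in Q-GL+, 519.7 and 558 in Q+GL+, 440.1 and 443 in Pax7-465, 433 and 488 in Pax3 and 478 and 474 in NoTag cells. Both Q+GL+ libraries were above all 10 others, with an adjusted p of 0.24. Calr, the soluble lectin calreticulin, was at 324 and 339 FPKM in Q-GL-, 295 and 269 in Q-GL+, 327 and 342 in Q+GL+, 302 and 320.1 in Pax7-465, 293 and 323 in Pax3 and 473 and 459 in NoTag cells. The Q-GL+ libraries were low and the NoTag libraries were high (adjusted p = 0.31 over the 5 groups).

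Canx, the membrane lectin calnexin, was at 187 and 207 FPKM in Q-GL-, 186 and 171 in Q-GL+, 185 and 198 in Q+GL+, 193 and 204 in Pax7-465, 172 and 195 in Pax3 and 244 and 245 in NoTag cells. Pdia4, a disulfide isomerase of the same family as P4hb, was at 118 and 121 FPKM in Q-GL-, 114 and 108 in Q-GL+, 122 and 129 in Q+GL+, 103 and 114 in Pax7-465, 107 and 126 in Pax3 and 136 and 136 in NoTag cells. In both, the NoTag libraries were above the 10 others. Pdia6, another isomerase, was at 196 and 197 FPKM in Q-GL-, 209 and 199 in Q-GL+, 202 and 226 in Q+GL+, 173 and 190.5 in Pax7-465, 186 and 216 in Pax3 and 250.5 and 244 in NoTag cells. P4hb was at 434 and 455 FPKM in Q-GL-, 426 and 396 in Q-GL+, 394 and 469 in Q+GL+, 375 and 403 in Pax7-465, 342 and 418 in Pax3 and 552 and 541 in NoTag cells. These 2 isomerases were likewise highest in the NoTag libraries, and none of the 5 other groups stood apart. Dnajb9, a cochaperone of Hspa5 that restrains Ire1, was at 19.4 and 19.2 FPKM in Q-GL-, 19.8 and 20.6 in Q-GL+, 21.9 and 19.4 in Q+GL+, 19.6 and 20.1 in Pax7-465, 17.3 and 18.8 in Pax3 and 13.3 and 14.4 in NoTag cells. Both NoTag libraries were below the 10 others, of which the Pax3 libraries were the lowest. Sdf2l1, a partner of the cochaperone Dnajb11, was at 71.3 and 76.8 FPKM in Q-GL-, 76.9 and 75.4 in Q-GL+, 72.5 and 81.03 in Q+GL+, 64.2 and 70.2 in Pax7-465, 70.1 and 81.3 in Pax3 and 89.7 and 87.2 in NoTag cells. Manf, an ER-resident and secreted protective factor, was at 217 and 198 FPKM in Q-GL-, 226 and 206 in Q-GL+, 228 and 247 in Q+GL+, 189 and 211 in Pax7-465, 199.9 and 245 in Pax3 and 293 and 275 in NoTag cells. In neither did any of the 5 groups lie wholly above or below the rest. Of the other 5 chaperones, Pdia3, the isomerase that works with the lectins, ranged from 86.5 to 140.7 FPKM over the 10 libraries and had the widest spread between duplicates in Pax7-465 and Q-GL+ cells. The cochaperones Dnajb11 and Dnajc3 ranged from 100.3 to 115 and from 17.3 to 20.6 FPKM. Creld2, a stress-inducible ER protein, ranged from 19.7 to 26.8 FPKM, and Hyou1, the nucleotide exchange factor of Hspa5, from 76.7 to 90.3 FPKM. None of these 5 passed (adjusted p from 0.43 to 0.94).

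None of the 7 sensors and factors passed. Ppp1r15a, the phosphatase subunit that restores eIF2 activity, was at 13.3 and 12.7 FPKM in Q-GL-, 18.2 and 16.5 in Q-GL+, 12.1 and 13.4 in Q+GL+, 13.2 and 12.9 in Pax7-465, 10.5 and 14.1 in Pax3 and 13.7 and 12.96 in NoTag cells. Both Q-GL+ libraries were above all 10 others, the F test gave an adjusted p of 0.11, and Pax3 duplicates differed most. Without Pax3 replicate 1 or Pax3 replicate 2 the adjusted p was 0.049 or 0.014. Atf4, the transcription factor at the centre of amino acid stress, was at 196 and 195 FPKM in Q-GL-, 209.9 and 204 in Q-GL+, 193 and 206 in Q+GL+, 176 and 189 in Pax7-465, 179.8 and 209.7 in Pax3 and 273 and 258 in NoTag cells (adjusted p = 0.65). The NoTag libraries were above the 10 others, among which no group stood apart. Ddit3, the stress factor Chop, was at 24.1 and 26.3 FPKM in Q-GL-, 28.2 and 26.1 in Q-GL+, 23.1 and 23.96 in Q+GL+, 26.2 and 27.5 in Pax7-465, 22.5 and 28.5 in Pax3 and 46.3 and 35.2 in NoTag cells. The NoTag duplicates of Ddit3 were the farthest apart of its groups. Xbp1 was at 126 and 121 FPKM in Q-GL-, 117 and 107 in Q-GL+, 114 and 118 in Q+GL+, 107 and 121 in Pax7-465, 98.6 and 112 in Pax3 and 172 and 176 in NoTag cells. Its mean was the highest of the 5 groups in Q-GL- cells and the lowest in Pax3 cells (adjusted p = 0.47). Atf6 was at 22.9 and 23.5 FPKM in Q-GL-, 22.1 and 20.8 in Q-GL+, 20.6 and 20.9 in Q+GL+, 21.9 and 21.8 in Pax7-465, 19.6 and 21.6 in Pax3 and 25.7 and 24.7 in NoTag cells. The NoTag libraries of Atf6 were the highest, followed by those of Q-GL- cells (adjusted p = 0.51). Eif2ak3 was at 11.01 and 10.3 FPKM in Q-GL-, 11.1 and 10.96 in Q-GL+, 10.7 and 10.99 in Q+GL+, 10.3 and 10.9 in Pax7-465, 10.1 and 11.7 in Pax3 and 14.9 and 13.5 in NoTag cells. Its 5 groups ran together below the NoTag libraries (adjusted p = 0.99). Ern1 ranged from 13.4 to 15.8 FPKM over the 10 libraries (adjusted p = 0.96).

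None of the 9 amino acid stress genes passed, and 2 had an unadjusted p under 0.05. Slc7a11 (mm10 chr3:49892525-50443614) was at 6.38 and 6.002 FPKM in Q-GL-, 7.31 and 6.91 in Q-GL+, 5.16 and 5.62 in Q+GL+, 6.88 and 6.95 in Pax7-465, 6.84 and 7.26 in Pax3 and 8.09 and 8.03 in NoTag cells. Both Q+GL+ libraries were the lowest of the 12, with an adjusted p of 0.092. Trib3, a pseudokinase induced by Atf4 and Chop, was at 29.2 and 30.9 FPKM in Q-GL-, 38.8 and 40.7 in Q-GL+, 34.3 and 27.6 in Q+GL+, 33.6 and 27.2 in Pax7-465, 32.05 and 30.1 in Pax3 and 43.6 and 42.8 in NoTag cells. The Q-GL+ libraries were above the 8 others of the test, with an adjusted p of 0.16. Slc3a2, the shared heavy chain of Slc7a11 and of leucine transporters, was at 228 and 234 FPKM in Q-GL-, 233 and 233 in Q-GL+, 209 and 193 in Q+GL+, 237 and 219.9 in Pax7-465, 212 and 212 in Pax3 and 234 and 243 in NoTag cells. Both Q+GL+ libraries were the lowest of the 12 (adjusted p = 0.29). Shmt2, the mitochondrial enzyme that takes one-carbon units from serine, was at 268 and 263 FPKM in Q-GL-, 269 and 244 in Q-GL+, 225 and 226 in Q+GL+, 254 and 279 in Pax7-465, 234 and 258 in Pax3 and 291 and 289 in NoTag cells. Here too the Q+GL+ libraries were the lowest of the 12 (adjusted p = 0.31).

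Asns was at 427 and 418 FPKM in Q-GL-, 443 and 406 in Q-GL+, 355 and 374 in Q+GL+, 389 and 425 in Pax7-465, 362 and 417 in Pax3 and 483 and 459 in NoTag cells (adjusted p = 0.44). Its lowest library was of Q+GL+ cells, next to a Pax3 library. Chac1, which degrades glutathione, was at 81.1 and 80.3 FPKM in Q-GL-, 83.9 and 72.8 in Q-GL+, 70.2 and 73.7 in Q+GL+, 67.7 and 74.4 in Pax7-465, 68.4 and 76.9 in Pax3 and 122 and 116 in NoTag cells. Psat1, an enzyme of serine synthesis, was at 239 and 236 FPKM in Q-GL-, 245 and 227 in Q-GL+, 212 and 222 in Q+GL+, 228 and 248 in Pax7-465, 214 and 247 in Pax3 and 296 and 291 in NoTag cells. Phgdh, the first enzyme of that pathway, was at 105 and 97.1 FPKM in Q-GL-, 116 and 106 in Q-GL+, 98.1 and 96.2 in Q+GL+, 97.9 and 116 in Pax7-465, 95.6 and 123 in Pax3 and 139 and 138 in NoTag cells. In the last 3 the NoTag libraries were the highest, and none of the 5 other groups lay wholly above or below the rest. Sesn2, a leucine sensor, ranged from 23.3 to 28.6 FPKM over the 10 libraries (adjusted p = 0.32).

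**Figure D2:**
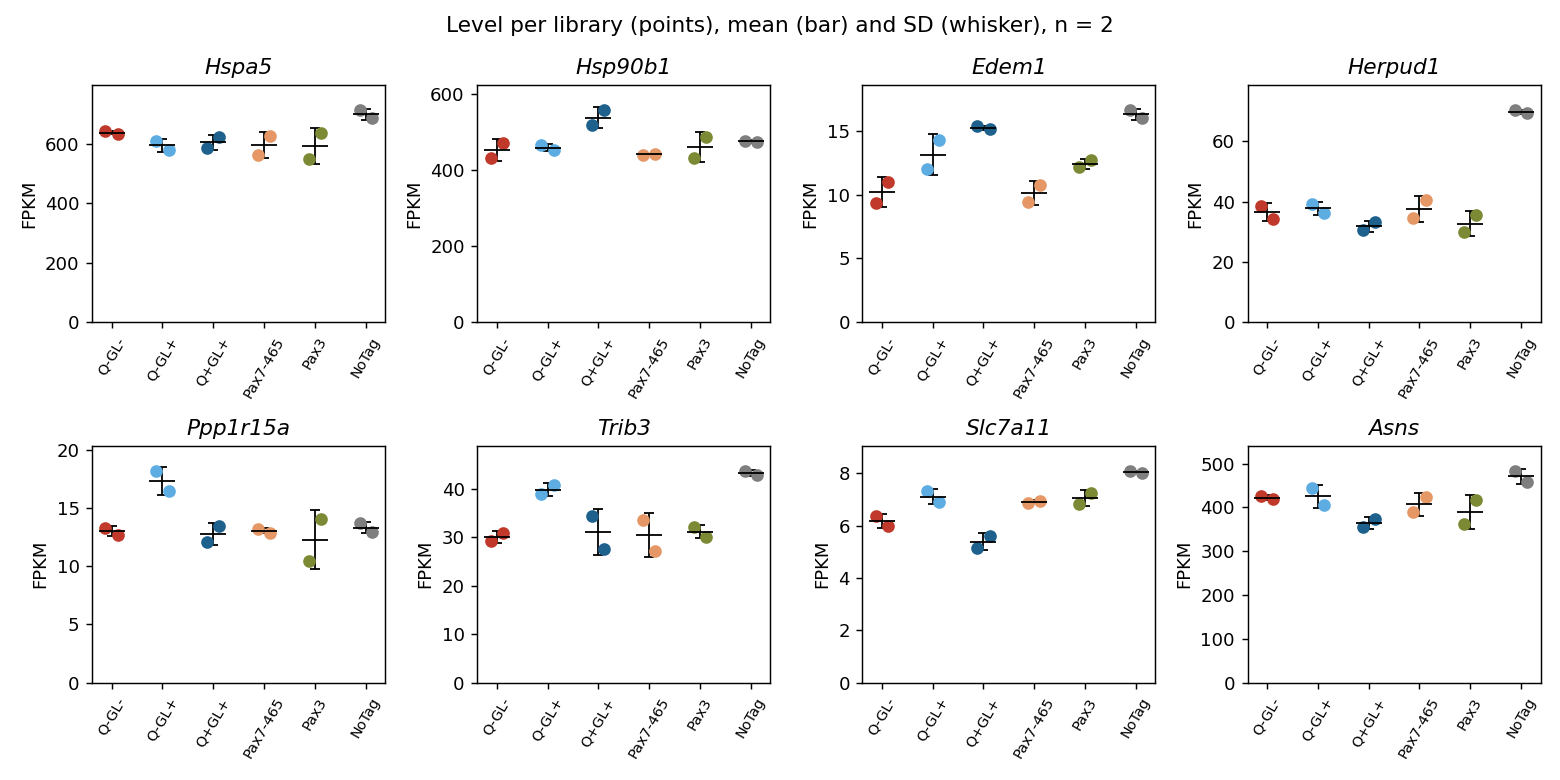
FPKM of 8 genes in each library (points), with the group mean (horizontal bar) and SD (whisker, n = 2), axes from 0. Edem1 and Hsp90b1 are high and Slc7a11 low in Q+GL+ cells, though Edem1 is higher still in NoTag cells, at 16.7 and 16.05 FPKM. Ppp1r15a is high in Q-GL+ cells, and Herpud1 stands near 70 FPKM in NoTag cells alone, at 69.3 and 70.3 FPKM.

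The effect of GL in cells without Q was read from Q-GL- against Q-GL+ cells. None of the 35 genes passed, against 4.17% of all genes tested, and 5 passed at an unadjusted p under 0.05, against 18.7%. Calr was higher in Q-GL- cells by 0.24 ± 0.08 on the log2 scale (SE, limma on log2(FPKM + 1), adjusted p = 0.15). Creld2 differed by -0.29 ± 0.11 (adjusted p = 0.19), Edem1 by -0.34 ± 0.10 (adjusted p = 0.091), Ppp1r15a by -0.39 ± 0.11 (adjusted p = 0.087) and Trib3 by -0.39 ± 0.11 (adjusted p = 0.071). The 95% intervals of 30 of the 35 genes lay within 0.5 of 0 on the log2 scale, and those of all 35 within 1. With median centring of the libraries Ppp1r15a passed as lower, as did 1.76% of all genes.

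The effect of Q in cells with GL was read from Q+GL+ against Q-GL+ cells. None of the 35 genes passed, against 0.962% of all genes, and 10 passed at an unadjusted p under 0.05, against 13.3%. Of these 10, Hsp90b1 (0.23 ± 0.09), Calr (0.25 ± 0.08) and Sel1l (0.22 ± 0.07) were higher in Q+GL+ cells, with adjusted p of 0.28, 0.21 and 0.20 in limma. Ppp1r15a (-0.41 ± 0.11), Trib3 (-0.36 ± 0.11) and Slc7a11 (-0.34 ± 0.08) were the lowest, with adjusted p of 0.12, 0.17 and 0.089. Herpud1, Asns, Shmt2 and Slc3a2 differed by -0.24, -0.22, -0.18 and -0.21. The Q+GL+ libraries were both below the Q-GL+ libraries in 7 of 9 amino acid stress genes, against 19.2% of all genes, and both above them in 5 of 15 chaperones, against 25.7%. The 95% intervals of 32 of the 35 genes lay within 0.5 of 0.

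Between the Pax7 proteins that lacked both insertions and carried both, Q-GL- and Q+GL+, 1 of the 35 genes passed, against 2.15% of all genes. Edem1 fell by 0.54 ± 0.10 on the log2 scale in Q-GL- cells (adjusted p = 0.017, both Q-GL- libraries below both Q+GL+ libraries). The call was lost without Q+GL+ replicate 1, Q+GL+ replicate 2 or Q-GL- replicate 1, with adjusted p up to 0.18. Hsp90b1 differed by -0.25 ± 0.09 (adjusted p = 0.19), and Asns, Shmt2 and Slc3a2 by 0.21, 0.23 and 0.20 (adjusted p = 0.32, 0.21 and 0.24).

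Edem1 also passed in Pax7-465 against Q+GL+ cells, whose proteins differ in the GL insertion as well as in the C-terminus, so that the effects of these cannot be told apart. Of the 35 genes 1 passed, against 1.33% of all genes, and Edem1 fell by 0.55 ± 0.10 (adjusted p = 0.020). This call was lost when any of the 4 libraries was left out, with adjusted p up to 0.15. At an unadjusted p under 0.05, 8 genes passed, against 13.1%. The chaperones Hsp90b1, Pdia4, Pdia6 and Manf differed by -0.29, -0.20, -0.23 and -0.25, and the amino acid stress genes Shmt2, Slc7a11 and Slc3a2 by 0.24, 0.31 and 0.18. This comparison and the previous 2 share the Q+GL+ libraries, so their values are not independent. Between Pax7-465 and Q-GL- cells, which differ in Q and in the C-terminus, none of the 35 passed, against 0.445% of all genes. Edem1 differed there by -0.0098 ± 0.10, and Syvn1 by 0.24 ± 0.11 (adjusted p = 0.44).

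The paralog was compared with both extremes of Pax7. None of the 35 genes passed in Q+GL+ against Pax3 cells, where 0.262% of all genes passed, or in Q-GL- against Pax3 cells, where 4.33% passed. The 95% intervals of 33 and 35 genes lay within 0.5 of 0. In the first comparison Slc7a11 differed by -0.33 ± 0.08 (adjusted p = 0.18) and Edem1 by 0.28 ± 0.10 (adjusted p = 0.38). In the second, Edem1 differed by -0.26 ± 0.10 (adjusted p = 0.18) and Xbp1 by 0.23 ± 0.09 (adjusted p = 0.17). The Pax3 duplicates were the least alike, with Pax3 replicate 1 below replicate 2 in 31 of the 35 genes, by a median of 0.17 on the log2 scale, and by 0.11 over all genes.

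**Figure D3:**
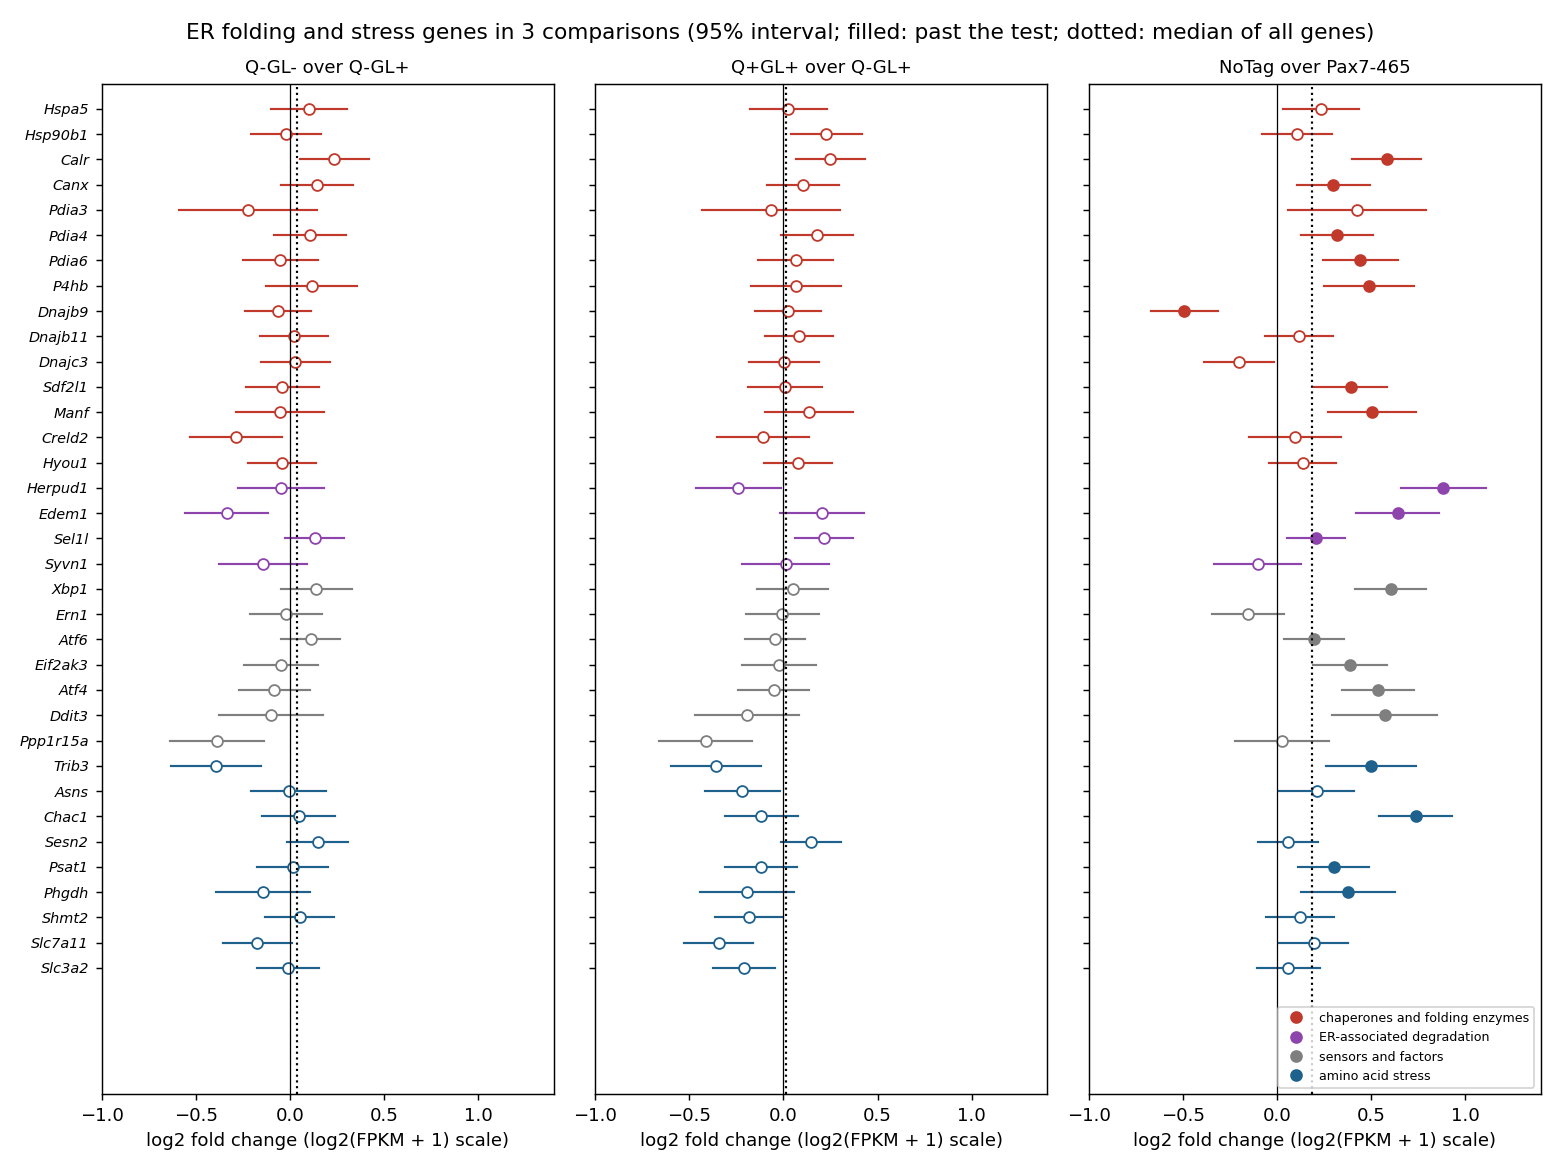
Log2 fold change of each of the 35 genes (point) with its 95% interval (line) in 3 comparisons, coloured by role, filled where the adjusted p was under 0.05, with the median of all genes dotted. No point is filled in the Q-GL- over Q-GL+ and Q+GL+ over Q-GL+ panels, and 20 are filled in the NoTag over Pax7-465 panel.

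The chaperones and the amino acid stress genes were set side by side as the mean log2(FPKM + 1) of each list in every library. The difference between them, chaperones minus amino acid stress genes, was 0.65 and 0.74 in the Q+GL+ libraries. It was 0.46 and 0.53 in Q-GL-, 0.42 and 0.46 in Q-GL+, 0.44 and 0.46 in Pax7-465, 0.49 and 0.53 in Pax3 and 0.39 and 0.40 in NoTag libraries. Both Q+GL+ libraries were above the 10 others, whose range was 0.39 to 0.53. The chaperone means of the Q+GL+ libraries, 6.996 and 7.07, overlapped those of the 8 libraries of the 4 other groups in the test, which reached 7.02, and the NoTag libraries were higher, at 7.14 and 7.15. The amino acid stress means of the Q+GL+ libraries, 6.33 and 6.349, were the lowest of the 12, next to 6.355 in a Pax3 library. By list medians in place of means, the Q+GL+ libraries did not both stand above the others. Their chaperone medians were 7.03 and 7.02, and their amino acid stress medians 6.63 and 6.60. Q-GL+ replicate 2 had 7.15 and 6.75, a difference about as large. Pax3 replicate 1 and Q-GL- replicate 2 had amino acid stress medians of 6.59 and 6.62. Among the 5 groups other than NoTag, the Q+GL+ mean was the highest for 9 of 15 chaperones, as for 20.6% of all genes, and the lowest for 6 of 9 amino acid stress genes, as for 18.0% of all genes. In Q+GL+ over Q-GL+ cells the median fold change was 0.07 for the chaperones, -0.19 for the amino acid stress genes and 0.01 for all genes on the log2 scale. In Q-GL- over Q+GL+ cells these medians were -0.07, 0.16 and 0.02, and in Pax7-465 over Q+GL+ cells -0.11, 0.13 and -0.01. These 3 comparisons share the Q+GL+ libraries.

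The members behind this contrast did not pass singly as the data were deposited. With quantile normalization of the 10 libraries other than NoTag, 5 of the 35 genes passed the F test, as did 823 of all genes in that fit. The 5 were Edem1, Hsp90b1, Shmt2, Slc7a11 and Asns. Median centring added Slc7a11 alone to Edem1, while 772 of 12578 genes passed. The corticotrope markers, dominated by Pomc, summed to 6614 to 7259 FPKM in Q+GL+ cells and 9172 to 9719 in Q-GL- cells. They summed to 7040 to 7706 FPKM in Q-GL+, 7794 to 8920 in Pax7-465 and 5515 to 6874 in Pax3 cells. Pomc alone averaged 6451 FPKM in Q+GL+ and 8890 in Q-GL- cells, so this sum mostly reads Pomc and does not measure corticotrope identity. The melanotrope markers summed to 73.4 to 75.03 FPKM in Q+GL+ cells, the lowest of all groups, 90.3 to 100.2 in Pax3, 110.3 to 114 in Q-GL+, 127 to 139 in Q-GL- and 127 to 141 in Pax7-465 cells. Over all libraries Megf11 ran from 58.6 to 132 FPKM, Pcsk2 from 11.7 to 65.6 and Oacyl from 1.69 to 11.1. This sum thus leans on Megf11 and does not measure melanotrope identity. The part of either list in the contrast was not tested.

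**Figure D4:**
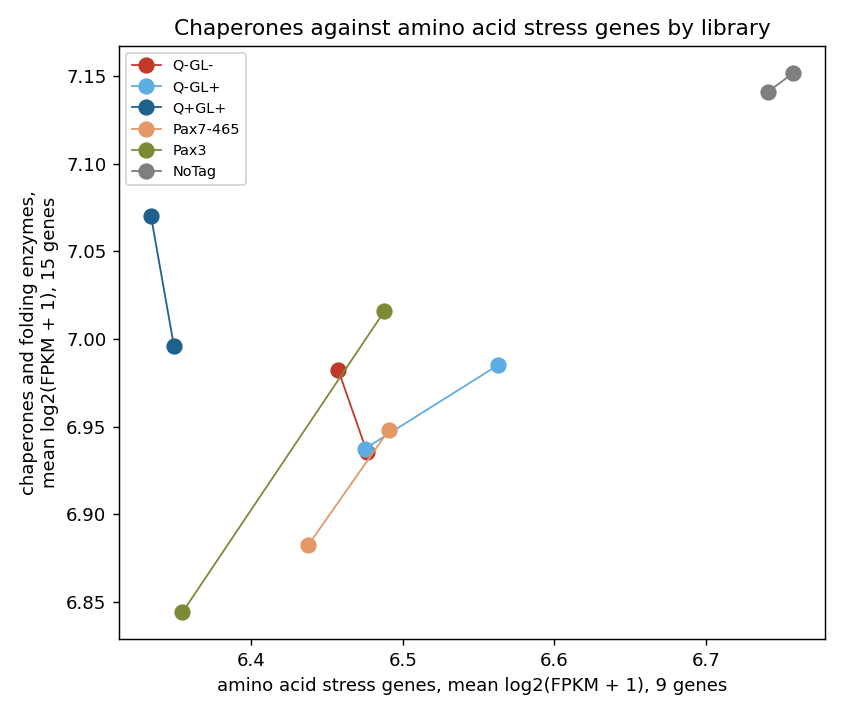
Mean log2(FPKM + 1) of 15 chaperones and folding enzymes against that of 9 amino acid stress genes, 1 point per library, with lines joining duplicates. The Q+GL+ points lie farthest to the left, where amino acid stress genes are low, with a Pax3 point next to them but lower. The NoTag points lie at the upper right, apart from the other 10 libraries.

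NoTag cells had higher levels of most of these genes, alongside higher levels of genes in general. Against Pax7-465 cells, 20 of the 35 genes passed, 19 higher and 1 lower, against 37.9% of all genes higher and 7.94% lower. Against Q+GL+ cells, 18 passed, 17 higher and 1 lower, against 36.9% and 9.02%. The median fold change of all genes was 0.19 and 0.18 on the log2 scale, and that of the 35 genes 0.30 and 0.25. The 2 comparisons share the NoTag libraries.

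The largest difference was in Herpud1, higher in NoTag cells by 0.88 ± 0.10 over Pax7-465 cells (limma, adjusted p = 3.9e-05) and by 1.11 ± 0.10 over Q+GL+ cells (adjusted p = 5.6e-06). Its levels were 69.8 ± 0.744 FPKM in NoTag, 37.5 ± 4.24 in Pax7-465 and 31.8 ± 1.83 in Q+GL+ cells (SD, n = 2). Chac1 was higher by 0.74 ± 0.09 and 0.72 ± 0.09 (adjusted p = 4.7e-05 and 5.2e-05), and Xbp1 by 0.60 ± 0.09 and 0.58 ± 0.09 (adjusted p = 0.00017 and 0.00021). The stress factors Ddit3 and Atf4 were higher by 0.57 and 0.54 over Pax7-465 cells and by 0.75 and 0.41 over Q+GL+ cells. Calr was higher by 0.58 and 0.48. The gene called lower in both was Dnajb9, which fell by 0.49 ± 0.08 and by 0.54 ± 0.08 (adjusted p = 0.00045 and 0.00022).

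Hspa5 did not pass in either comparison, at 0.24 ± 0.09 and 0.21 ± 0.09 (adjusted p = 0.056 and 0.085). Hsp90b1 was at 0.11 ± 0.09 and -0.18 ± 0.09 (adjusted p = 0.33 and 0.11), and Ppp1r15a at 0.03 ± 0.11 and 0.06 ± 0.11. By role, 8 of 15 chaperones, 3 of 4 degradation genes, 5 of 7 sensors and factors and 4 of 9 amino acid stress genes passed against Pax7-465 cells. Against Q+GL+ cells the counts were 4 of 15, 1 of 4, 5 of 7 and 8 of 9. Of all genes, 37.9% passed as higher and 7.94% as lower over Pax7-465 cells, and 36.9% and 9.02% over Q+GL+ cells.

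The direction of the smaller changes depended on the scale. After subtracting each library's median, 15 of the 35 genes passed in each comparison, 11 higher and 4 lower, against 21.1% higher and 19.4% lower of all genes over Pax7-465 and 21.6% and 21.2% over Q+GL+ cells. Relative to the median of all genes, Herpud1 was higher by 0.70 and 0.93, Chac1 by 0.55 and 0.54, Xbp1 by 0.42 and 0.41, and Ddit3 by 0.38 and 0.57. Dnajb9 fell by 0.68 and 0.72 on that scale, and Dnajc3 and Ern1 fell in both comparisons after centring. Atf6, Canx, Trib3 and Eif2ak3 lost their calls in both. Corticotrope markers, again mostly Pomc, summed to 11047 to 11157 FPKM and melanotrope markers to 196 to 205 FPKM in NoTag cells, both the highest of all groups. The part of the higher FPKM sum, of both marker lists, of the tag, of the unnamed isoform and of the higher Pax7 level in these differences was not tested.

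Further genes of the same pathways came from lists of ER folding, translocation and degradation genes, of amino acid stress genes with transporters and tRNA synthetases, and of cytosolic and mitochondrial heat shock genes. Across the 5 groups, 2 of 42, 2 of 38 and 0 of 8 passed the F test, to be read against the 4.78% above. At an unadjusted p under 0.05, 9, 7 and 0 passed, against 19.5% of all genes. Sil1, the exchange factor that recycles Hspa5, was highest of the 5 groups in Q-GL- cells at 43.6 FPKM ± 0.315 and lowest in Q+GL+ cells at 27.9 ± 2.81 (SD, n = 2, adjusted p = 0.011). Derl3, a channel component of ER-associated degradation, was at 9.75 ± 1.398 FPKM in Q+GL+, 8.84 ± 0.115 in Q-GL-, 6.02 ± 0.321 in Q-GL+ and 6.002 ± 0.157 in Pax7-465 cells (adjusted p = 0.014). Aldh1l2, a mitochondrial folate enzyme, was at 81.0 ± 4.05 FPKM in Q-GL-, 78.4 ± 3.26 in Pax7-465 and 56.8 ± 0.243 in Q+GL+ cells (adjusted p = 0.0032). Fgf21, a hormone induced by Atf4, was at 387 ± 25.0 FPKM in Q-GL+ and 259.8 ± 10.8 in Q+GL+ cells (adjusted p = 0.019). Sil1, Aldh1l2 and Fgf21 had their lowest means of the 5 groups in Q+GL+ cells, while Derl3 had its highest there. Sil1 was about as low in Pax3 cells, at 28.3 ± 2.53 FPKM (limma, Q+GL+ over Pax3, adjusted p = 0.97). Aldh1l2 was at 61.2 ± 1.37 FPKM in Pax3 and 63.8 ± 2.26 in Q-GL+ cells, and Fgf21 at 329 ± 35.9 in Pax3 cells.

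Next in the first list were Ero1l, the oxidase that recharges protein disulfide isomerases (adjusted p = 0.096), and Sec61g, a subunit of the translocation channel (adjusted p = 0.10), both with their highest means of the 5 groups in Q-GL+ cells, at 90.3 ± 1.204 and 32.0 ± 1.51 FPKM. In the second list Atf3, a stress factor, and Cth, an enzyme of cysteine synthesis, had adjusted p of 0.087 and 0.098, and Cth was lowest in Q+GL+ cells at 76.8 ± 0.995 FPKM. In the third list Hspe1, Hspd1, Dnaja1 and Hsp90aa1 had adjusted p from 0.30 to 0.66. Of the 38 wider amino acid genes, 22 had their lowest mean in Q+GL+ cells, as did 18.0% of all genes, and 22 had their highest in Q-GL- cells, as did 32.3% of all genes. Of the 42 wider ER genes, 4 had their highest mean in Q+GL+ cells, as did 20.6% of all genes, and 12 had their lowest there, as did 18.0%. In Q+GL+ over Q-GL+ cells the median fold change was -0.04 for the 42 ER genes, -0.09 for the 38 amino acid genes and 0.01 for all genes. The median fold change in Q-GL- over Q+GL+ cells was 0.15 for these 38 genes, 0.06 for the 42 ER genes, 0.04 for the 8 heat shock genes and 0.02 for all genes.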

How the data were processed

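Libraries were made from total RNA after ribosomal depletion. Per the study's methods and the submitters' processing notes, the authors trimmed strand-specific paired-end reads with Trimmomatic, mapped them with TopHat2 to Ensembl GRCm38 release 77 (mm10), and quantified genes with HOMER. The versions of these tools used on the RNA-seq reads are not given in the sources used here. The deposited values are FPKM per gene and library, a unit that the labels do not name and that the values do not contradict. Some values lie far below what 1 read could give, so reads could not be recovered and the depth, and with it the counting error, is unknown. The table also held 4 columns of values that match no sample, which were not used.

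The study used a test for counts. Here log2(FPKM + 1) was tested with limma 3.58.1 (R 4.3.3, trend and robust variance), since FPKM are not counts, in 1 fit of 12 libraries, which gives the 6 groups 1 estimate of the spread. Genes needed at least 1 FPKM in at least 2 libraries, and p-values were adjusted over all 12578 genes by Benjamini-Hochberg. A fold change on this scale understates that of low genes. An F test covered the 5 groups other than NoTag, and 9 pairwise comparisons followed. No p was computed over the lists. Fits were tested on simulated data.

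The genes, lists and tests were chosen with earlier results of these data known. Genes past the F test or any pairwise test are given with their value in every library, together with Hspa5, Atf4 and Pax7, and the others by range. From each wider list the 4 genes with the smallest adjusted p are named. Hsp90b1 and Ppp1r15a were added to the genes given in every library after their values were seen. The alternatives tried were other scalings, filters, pseudocounts and variance models, a replicate block, fewer libraries in the fit, a fold threshold and leaving out each library. Where 1 library was left in a group, it was assumed to vary like the other groups. Quantile normalization without the NoTag libraries was added after seeing the data. Same-numbered libraries did not deviate together, with correlations of -0.16 to 0.17 and 2 of 15 group pairs over 0.1, so the numbers were not taken to pair them. Promoter windows came from RefSeq (GRCm38.p6).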

Additional observations from a re-analysis of the deposited data

How the results depend on the processing

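The count of genes passing the F test was 1 as reported, 10 with quantile normalization of all 12 libraries, 5 with quantile normalization of the 10 libraries other than NoTag, and 2 with median centring. Over all genes tested, the counts were 601, 1149, 823 and 772 in that order. For Q-GL- over Q-GL+, Q+GL+ over Q-GL+, Q-GL- over Q+GL+, Q+GL+ over Pax3 and Pax7-465 over Q+GL+ cells, counts were 0, 0, 1, 0 and 1 as reported. They were 2, 7, 5, 2 and 9 with quantile normalization, and 2, 4, 4, 0 and 4 when NoTag was left out of it. They were 1, 1, 2, 0 and 2 with median centring. With only the libraries of the groups compared, the first 2 counts were 2 and 1. Leaving out 1 library gave 0 to 2 for the F test, 0 to 1 for Q-GL- over Q+GL+ and 0 for Pax7-465 over Q+GL+ cells.

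Where calls also needed an absolute log2 change of 0.5, NoTag counts were 8 over Pax7-465 and 7 over Q+GL+ cells, against 20 and 18. They ranged from 14 to 19 and from 13 to 17 without 1 library. With quantile normalization 11 were higher and 9 lower in the first and 9 and 8 in the second, and 11 fold changes reversed. Over Pax7-465 these became -0.12 for Hspa5, -0.0286 for Sel1l, -0.0246 for Atf6, -0.16 for Asns, -0.0258 for Psat1 and -0.0054 for Slc7a11. Over Q+GL+ they became -0.11 for Hspa5, -0.0188 for Pdia6, -0.0380 for Sdf2l1, -0.0084 for Manf and -0.0033 for Slc3a2. Quantile normalization forces 1 distribution on all libraries, and NoTag had a higher sum. The cause of the other changes was not tested.

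With a pseudocount of 0.1 the difference between chaperones and amino acid stress genes was 0.47 in place of 0.45 in Pax7-465 and 0.41 in place of 0.40 in NoTag cells. With the replicate block, 19 genes passed in place of 20 for NoTag over Pax7-465, Atf6 being lost, and 18 for NoTag over Q+GL+. The block changed no count of the other comparisons. Filters, limma without trend and leaving NoTag out of the fit kept each count within 1 of that reported. With 2 libraries per group and unknown depth, small differences in low genes such as Slc7a11 and Eif2ak3 are the least certain.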
